A study of Mus musculus with 4 samples.

Results

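The transcriptome described here is that of B16-F10 cells, a mouse melanoma line, kept for 2 h in culture with a nonspecific IgG of goat, used as the control antibody at 15 ug/ml. It was read from the Cy3 channel alone of 4 Agilent 2-colour arrays, so it covers 4 of the 8 labelled RNA samples of the series. The 4 samples come from passages 14, 16, 18 and 19 of the line, 1 array a passage, and the labels call different passages biological replicates. All were grown in high-glucose DMEM with 10% fetal bovine serum, penicillin with streptomycin, and glutamine. The Cy5 channel of each array held cells of the same passage under an agonist antibody against TIM-3 and was not used here, nor was any ratio of the channels. Every sample received IgG, so these levels are those of IgG-treated cells and not of untouched cells, and a single line at different passages does not show how other melanomas vary.

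B16-F10 cells come from a pigmented skin tumour of the mouse and were selected for their spread to the lung. Melanocytes arise from the neural crest. In them MITF, helped by SOX10 and PAX3, switches on the enzymes that turn tyrosine into melanin (Tyr, Tyrp1 and Dct) and the proteins of the melanosome, the organelle in which melanin is laid down (Pmel, Mlana and others). MITF binds a short E-box sequence, CATGTG, and an extended form of it known as the M-box lies in the promoters of pigment enzymes.

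The promoters of 3 pigment genes are shown because they carry that E-box in a shared longer form. They are the 250 bases before the RefSeq start of each gene, 5′ to 3′ on the gene's strand, from RefSeq's promoter table of assembly GRCm38.p6, and capitals mark GTCATGTGCT, the longest stretch around CATGTG that all 3 share. Tyr is at chr7:87493513-87493762 on the minus strand, Tyrp1 at chr4:80833963-80834212 on the plus strand and Dct at chr14:118052247-118052496 on the minus strand.
Tyr: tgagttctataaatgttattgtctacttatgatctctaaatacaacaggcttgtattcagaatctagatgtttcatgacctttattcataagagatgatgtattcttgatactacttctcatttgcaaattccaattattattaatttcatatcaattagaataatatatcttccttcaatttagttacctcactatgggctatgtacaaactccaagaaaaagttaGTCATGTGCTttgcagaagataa
Tyrp1: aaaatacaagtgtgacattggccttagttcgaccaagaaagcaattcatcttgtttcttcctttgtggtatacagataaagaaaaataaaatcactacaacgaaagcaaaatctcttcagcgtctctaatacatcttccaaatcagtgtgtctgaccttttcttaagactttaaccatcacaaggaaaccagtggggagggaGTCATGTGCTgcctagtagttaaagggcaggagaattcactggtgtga
Dct: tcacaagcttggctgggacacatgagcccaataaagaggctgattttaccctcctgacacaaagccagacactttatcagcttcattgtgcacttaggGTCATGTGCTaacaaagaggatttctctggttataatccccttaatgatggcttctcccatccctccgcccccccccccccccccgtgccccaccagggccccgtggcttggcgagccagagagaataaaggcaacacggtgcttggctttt
The shared stretch begins 23 bases before the start of Tyr, 48 before that of Tyrp1 and 152 before that of Dct. On either strand GTCATGTGCT was found in 61 of 32851 promoters (0.186%), and, of the 10 pigment genes with a promoter in the table, in the 3 that were used to define it. The shorter CATGTG, which lies inside it, was found in 14.2% of the promoters and in 7 of those 10. A match of letters is a description and does not show that a factor binds there.

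A level here is the log2 of the processed Cy3 signal minus the array's 75th percentile, so 0 is the brightness of the 75th percentile and 1 unit is a factor of 2. Levels of a gene are given in the order of passages 14, 16, 18 and 19, and for the gene's brightest probe unless another probe is named. A probe's signal also depends on its own sequence, so levels compare arrays for 1 probe and do not rank transcripts. A probe was called detected where the scanner software flagged it well above background, a rule of 13 background SDs in the file headers. Of the 153 negative control spots on each array, 2 carried that flag at passage 14, 0 at passages 16 and 18, and 1 at passage 19. The arrays of passages 16, 18 and 19 were alike in median raw signal (113 to 122), and passage 14 stood apart at 167. The software's linear dye factor for Cy3 was 0.764 at passage 14 and 1.20 to 1.29 on the others. The file headers give 1 slide and 1 scan for the whole set, and passage and array cannot be told apart.

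Most named genes were detected in the control cells. Of 41174 probes, 20568 (49.95%) were detected on all 4 arrays, 18203 (44.2%) on none and 2403 (5.84%) on 1 to 3. At the level of genes, 11812 of 19492 (60.6%) had a probe detected on all 4 arrays and 6590 (33.8%) had none on any. Among protein-coding genes 11555 of 18428 were detected (62.7%), and among long non-coding RNAs 191 of 877 (21.8%). Probes of 1 gene often disagreed. Of 8648 genes with several probes, 2385 (27.6%) had a probe detected on all 4 arrays and another detected on none. A gene without signal is therefore one whose probes on this design were not above background.

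**Figure D1:**
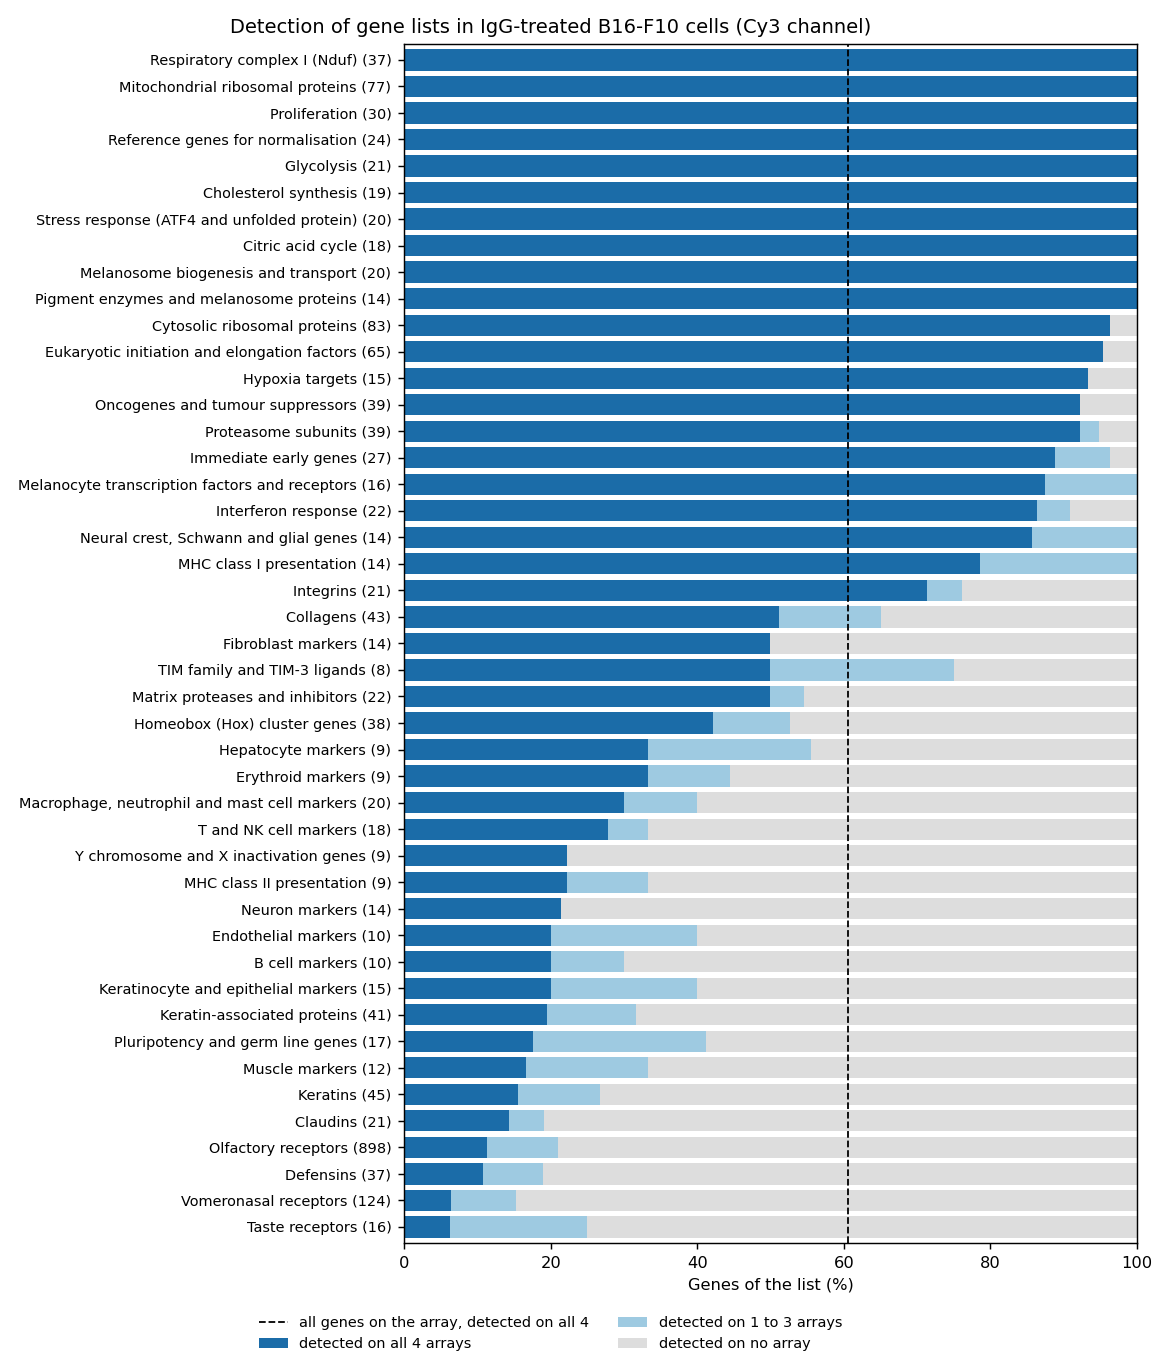
Share of each gene list detected on all 4 arrays (dark), on 1 to 3 (light) and on none (grey), with the number of genes on the array in brackets and a dashed line at 60.6%, the share over all genes. The melanocyte, growth and metabolism lists lie to the right of the line, and sensory receptors, keratins and markers of other cell types to the left.

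Melanocyte genes were detected almost without exception. All 14 genes of the list of pigment enzymes and melanosome proteins were detected, against 60.6% of all genes, as were all 20 genes of melanosome biogenesis and transport, such as Rab27a, Myo5a and Mlph, which together carry melanosomes along actin. Dct, which encodes dopachrome tautomerase, gave the brightest probe of any named gene. Its levels were 7.08, 7.02, 7.11 and 7.31, a range far smaller than 1 unit. Tyrp1, a melanosomal oxidase, had 6.76, 6.63, 6.60 and 6.64. Pmel, whose fibrils scaffold melanin, had 6.68, 6.59, 6.64 and 6.78. Each of these probes thus stayed within 0.29 units over the 4 arrays. Mlana, a melanosome protein known as a melanoma antigen, had 6.66, 6.68, 6.66 and 6.54. Tyr, the rate-limiting tyrosinase, had 0.69, 0.37, -0.16 and 0.08 at its single probe, highest at passage 14 and lowest at passage 18.

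Of the 16 melanocyte transcription factors and receptors, 14 were detected, and the other 2, Foxd3 and Ednrb, were detected on some arrays only. Mitf, the master regulator of the lineage, had 4.32, 4.23, 3.98 and 3.95. Sox10, a neural crest factor that acts upstream of Mitf, had 4.14, 3.95, 3.89 and 4.06. The range was 0.37 units for Mitf and 0.25 for Sox10. The Mitf SD of 0.183 was above the median of 0.106 for probes with mean levels from 3 to 5. The other Mitf probe was also highest at passage 14. Pax3, the other activator of Mitf, had 1.24, 1.62, 1.38 and 1.23. Met, the receptor for hepatocyte growth factor, had 5.97, 5.58, 5.23 and 5.46, and all 3 of its probes were highest at passage 14. Kit, the receptor for stem cell factor that melanocyte precursors need, had -3.32, -2.84, -2.05 and -2.59, lowest at passage 14 and highest at passage 18. Among 14 neural crest, Schwann and glial genes 12 were detected, among them S100b, a common melanocytic marker, at 5.41, 5.47, 5.15 and 5.41.

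Genes of growth and basic metabolism were detected nearly without gaps. All 30 proliferation genes, all 21 of glycolysis, all 18 of the citric acid cycle, all 19 of cholesterol synthesis on the array, all 37 subunits of respiratory complex I and all 77 mitochondrial ribosomal proteins were detected. Of the cytosolic ribosomal proteins 80 of 83 were, and of the proteasome subunits 36 of 39. Mki67, a marker of cycling cells, had 4.94, 4.83, 4.90 and 4.74. Pcna, the clamp of the replication fork, had 5.64, 5.71, 5.78 and 5.78. Neither differed by more than 0.21 units over the passages. Of the 20 named genes with the brightest probes 12 encode cytosolic ribosomal proteins, and the rest include Aldoa, a glycolytic aldolase (6.96, 7.11, 7.17 and 7.27), Ftl1 and Fth1, the chains of ferritin, and Ran, a GTPase of nuclear transport. Ptprz1, a receptor tyrosine phosphatase, was among them at 7.08, 6.54, 6.69 and 7.27 by 1 probe, while its other 3 probes were detected on no array.

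Among 39 oncogenes and tumour suppressors, 36 were detected and 3 were not: Cdkn2a, Cdkn2b and Mycn. Cdkn2a encodes the cell cycle inhibitor p16 and the p53 activator ARF, and Cdkn2b, its neighbour, encodes p15. The Cdkn2a probe read -7.03, -6.81, -6.80 and -6.70 and the Cdkn2b probe -7.01, -6.81, -6.15 and -6.70. Both genes thus read at background, where values do not rank passages. Both were lowest at passage 14, as were some other probes at background, and what part the background has in low values there was not tested. Mtap, which lies beside them on the chromosome in mouse and human, was detected at 2.67, 2.51, 2.59 and 2.53. Trp53 and Braf were detected on every array. Myc, a driver of growth, had 2.66, 2.84, 2.82 and 2.92, and so was steady within 0.26 units.

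Antigen presentation genes were detected in part. Of 14 genes of MHC class I presentation on the array, 11 were detected and 3, Tap1, Tap2 and Psmb8, were detected on some arrays only. B2m, the light chain of class I, had 3.95, 4.00, 3.60 and 3.72. H2-K1, a class I heavy chain, had 2.80, 2.38, 2.12 and 2.97, and H2-D1, another, had 1.43, 1.31, 0.95 and 1.36. By these probes all 3 were lowest at passage 18, while a dimmer B2m probe had -2.91, -2.42, -2.53 and -2.39, lowest at passage 14. Of the list's 13 tested genes 6 were lowest at passage 18, against 29.8% of all tested genes. Another 5 were lowest at passage 14, against 35%. Psmb8, an inducible proteasome subunit that shapes class I peptides, was detected on 1 array only. Of the 9 genes of class II presentation 6 were not detected, among them H2-Aa, H2-Ab1, H2-Eb1 and their activator Ciita. By a looser flag of the software, a signal significantly above background, 7 of these 9 were detected. That flag called more genes over the whole array as well, so the rise is not particular to class II. Of 22 interferon-response genes 19 were detected, and Irf7 and Ifi44 were not.

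The transcript of the receptor that the study's other samples were treated against gave signal at 1 of its 2 probes. Havcr2, which encodes TIM-3, was detected on all 4 arrays at -0.97, -0.87, -1.24 and -0.99 by a probe at chr11:46437901-46437960 (mm7, as the files give it). Its other probe was detected on none. Of proteins described as TIM-3 ligands, Lgals9 (galectin-9) had -0.84, -0.93, -1.02 and -1.34, and Hmgb1, a nuclear protein released by damaged cells, had 5.20, 5.45, 5.65 and 5.68. Ceacam1 was detected on 1 array only. Of the related receptors Timd2 and Timd4 were not detected, and Havcr1 was detected on 1 array.

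Markers of most other cell types were detected in smaller shares than the 60.6% of all genes. In the list of T and NK cell markers 5 of 18 were detected, of B cell markers 2 of 10, of macrophage, neutrophil and mast cell markers 6 of 20, of endothelial markers 2 of 10, and of keratinocyte and epithelial markers 3 of 15. By the looser flag, which called more genes over the whole array as well, these counts were 8, 5, 9, 5 and 7. Ptprc, the CD45 antigen of all leukocytes, was not detected, nor were Cd3d, Cd3g, Cd8a, Ms4a1, Adgre1, Itgam, Pecam1, Kdr, Epcam or Alb. Of 14 neuron markers 3 were detected. Syn1, a synaptic vesicle protein, had 2.60, 3.14, 3.10 and 3.23 at 1 of its 4 probes, and the other 3 were silent. Tubb3, a neuronal tubulin, had 1.91, 1.92, 1.94 and 2.16. In the fibroblast list 7 of 14 were detected, with Col1a1, Col5a1, Fn1 and Acta2 among them, while Col3a1, Pdgfra, Dcn, Lum, Thy1, Twist1 and Fap were not. Of 22 matrix proteases and inhibitors 11 were detected, and Mmp3, Mmp9, Mmp13 and Plau were not. The detected share was 50% in the fibroblast list and in that of matrix proteases, near the 60.6% of all genes.

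The X inactivation transcript Xist was not detected by any of its 4 probes. Of 8 genes on the Y chromosome 6, among them Ddx3y, Eif2s3y, Kdm5d and Uty, were not detected either. Zfy1 had -3.15, -3.07, -2.97 and -2.82 at 1 of its 2 probes and was dim on every array. The only detected Zfy2 probe overlaps that Zfy1 probe in the coordinates the files give, so the pair cannot be told apart here.

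Sensory and keratin gene families made up a large block of silent genes. Of 898 olfactory receptor genes 102 (11.4%) were detected and 709 were not, and of 124 vomeronasal receptors 8 (6.45%) were detected. Keratins had 7 of 45 detected, defensins 4 of 37, claudins 3 of 21 and taste receptors 1 of 16. These counts depend on the threshold: by the same looser flag, 348 olfactory receptors were called, and 3083 genes in all, in place of 6590, were detected on no array. Olfr571, an olfactory receptor, had 1.63, 1.69, 1.66 and 1.66, and Krtap4-6, a hair keratin-associated protein, had 5.40, 5.43, 5.53 and 5.55. Both rest on a single probe, and whether those probes also catch another transcript was not tested. Homeobox genes of the Hox clusters were mixed, with 16 of 38 detected, among them Hoxa10 and Hoxd13, and 18 not.

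Silent genes lay next to each other in these families. Runs were counted over protein-coding genes with a coordinate in the files (mm7), and other genes were passed over. The longest unbroken runs of undetected genes were 18 olfactory receptor genes at chr19:13065383-13588320, from Olfr1467 to Olfr1504, and 18 at chr2:89093332-89632979, from Olfr1228 to Olfr1254. Another of equal length, at chr9:37589075-38198691, held 17 olfactory receptors and Panx3. Runs of 14 without olfactory receptors lay at chr5:87629506-88461412, from the casein gene Csn2 to Jchain, and at chr6:129687276-131293516, among the natural killer receptor genes from Klrc2 to Klra2. The longest run of detected genes had 35 members at chr12:62863388-69005207. By chromosome the detected share of these protein-coding genes was highest on chromosome 12 (71.9%) and lowest among autosomes on chromosome 7 (56.4%). It was 51.8% on X and 2 of 16 genes on Y, against 62.7% of all protein-coding genes.

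Detection went with the CG content of the promoter. The sequences of Ppia and Fcgr1 show the ends of the range, the highest CG ratio among detected reference genes and the lowest among undetected macrophage, neutrophil and mast cell markers, with every CG in capitals (250 bases before the RefSeq start, GRCm38.p6, 5′ to 3′). Ppia, a peptidyl-prolyl isomerase often used as a reference gene, is at chr11:6415617-6415866 on the plus strand and was detected at 4.94, 5.19, 5.04 and 4.93. Fcgr1, a macrophage receptor for IgG, is at chr3:96293970-96294219 on the minus strand and was not detected.
Ppia: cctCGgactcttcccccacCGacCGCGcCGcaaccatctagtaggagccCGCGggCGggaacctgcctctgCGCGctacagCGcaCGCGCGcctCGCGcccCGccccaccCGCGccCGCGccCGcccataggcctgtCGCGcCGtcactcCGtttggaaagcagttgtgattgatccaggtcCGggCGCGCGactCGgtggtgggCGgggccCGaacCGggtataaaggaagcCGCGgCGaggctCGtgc
Fcgr1: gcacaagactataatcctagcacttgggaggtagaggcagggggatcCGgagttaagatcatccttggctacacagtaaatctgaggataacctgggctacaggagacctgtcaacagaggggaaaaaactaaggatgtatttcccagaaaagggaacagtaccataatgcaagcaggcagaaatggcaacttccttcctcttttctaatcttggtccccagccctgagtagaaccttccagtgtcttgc
The Ppia stretch holds 38 CG and the Fcgr1 stretch 1. Among genes with 1 promoter in the table, the median ratio of observed to expected CG was 0.782 in 7446 detected genes and 0.260 in 4026 undetected ones. The detected share was 19.6% of 2293 genes with a ratio under 0.2, 57.0% of 1533 genes between 0.4 and 0.6, and 92.3% of 1112 genes at 1 or more. Among genes with 1 probe it ran from 16.02% to 89.4%. The base content of the probe moved with detection too: 22.96% of probes under 35% GC and 79.6% of those at 60% or more were detected, and its part in the promoter result was not tested. These are descriptions across genes, which are not independent replicates.

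**Figure D2:**
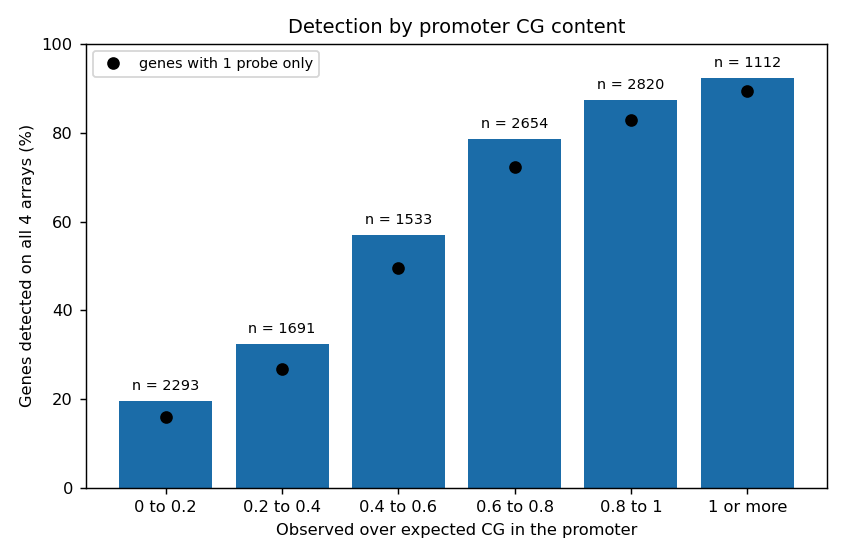
Share of genes detected on all 4 arrays (bars, number of genes above each) by the ratio of observed to expected CG in the promoter, with dots for genes that have 1 probe. The share goes from 19.6% in the lowest class to 92.3% in the highest.

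The second question the labels allow is how stable these levels were over passages 14, 16, 18 and 19. For most probes they differed little. Among 21188 probes detected on at least 3 arrays the median SD over the 4 arrays was 0.132, and 85.3% had an SD below 0.25. A range over 1 unit, a 2-fold difference between the highest and lowest array, was seen in 601 probes (2.84%), and over 2 units in 109. Dim probes varied more: the share with a range over 1 was 7.96% for mean levels under -3 and 0.503% for those from 3 to 5. Replicate spots give the technical floor within an array. For the 137 tested probes spotted 10 times the median SD between spots of 1 array was 0.0710, and between the arrays it was 0.135. Added spike-in transcripts, which do not come from the cells, had a median SD of 0.151 over the arrays.

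The array of passage 14 lay farthest from the others. The SD of the difference between a pair of arrays was largest for passages 14 and 18, at 0.414, and smallest for passages 18 and 19, at 0.208, and Pearson's r across probes ran from 0.988 to 0.997. Of the 601 probes, 388 were lowest at passage 14, which is 64.6% against 36.8% of all tested probes, and 322 highest at passage 18, which is 53.6% against 27.8%. Without passage 14, 187 probes had a range over 1 on the other arrays, and the median SD was 0.102. With normexp background correction of the raw signals, 233 probes had a range over 1 instead of 601. That correction uses no Cy5 value, but it also adds an offset of 50 to every signal. The offset is added on the scale of the raw signals, whose medians were 113 to 167 with background included. What part of the drop lies in the offset was not tested.

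**Figure D3:**
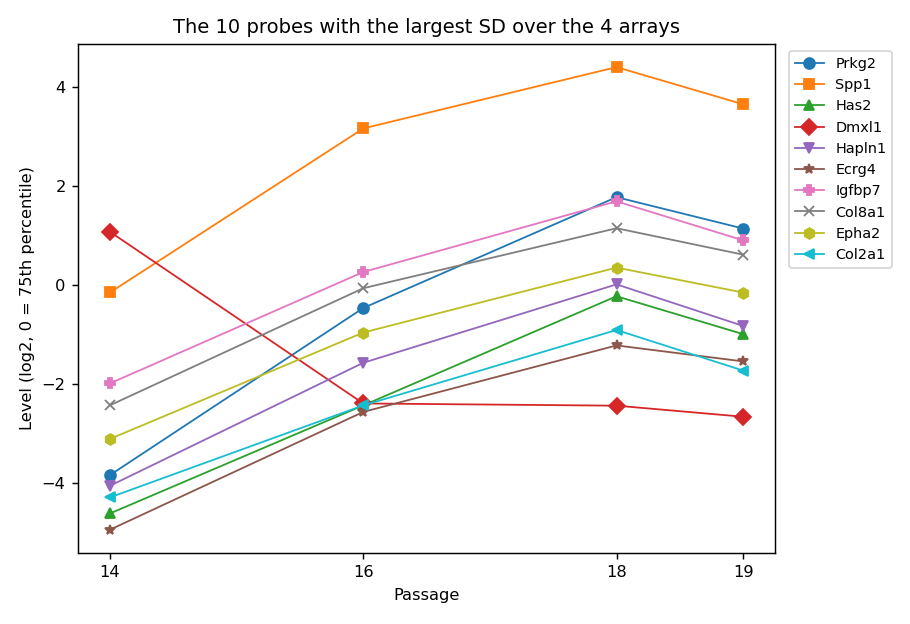
Level (log2, with 0 at the array's 75th percentile) against passage for the 10 probes with the largest SD among those detected on all 4 arrays, 1 array a passage. The lines of 9 genes are lowest at passage 14 and highest at passage 18, and Dmxl1 alone is high at passage 14.

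Of the 10 probes with the largest SD, 9 were lowest at passage 14 and highest at passage 18, and several of them belong to genes of secreted or matrix proteins. Prkg2, a cGMP-dependent kinase, had -3.85, -0.47, 1.77 and 1.13. Spp1, which encodes osteopontin, a secreted integrin ligand, had -0.16, 3.16, 4.39 and 3.64. Has2, a hyaluronan synthase, had -4.62, -2.44, -0.23 and -1.0. In each of these the passage 14 array was the lowest, and passages 18 and 19 lay above passage 16. Hapln1, which links hyaluronan to proteoglycans, had -4.06, -1.58, 0.01 and -0.83. Igfbp7, a secreted binding protein, had -1.99, 0.26, 1.68 and 0.89. Epha2, an ephrin receptor, had -3.12, -0.97, 0.34 and -0.16. Ecrg4, Col8a1 and Col2a1 were the other members with this order. With normexp the difference between passages 18 and 14 was 4.20 to 4.42 for Prkg2 in place of 5.61 and 2.64 to 2.86 for Has2 in place of 4.39, and for Spp1 it stayed at 4.23 to 4.26 against 4.55. Dmxl1, the exception, had 1.07, -2.40, -2.45 and -2.67 at 1 probe. Another Dmxl1 probe detected on all arrays had -1.36, -1.53, -1.72 and -1.84, so the high value at passage 14 was seen at 1 probe only.

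**Figure D4:**
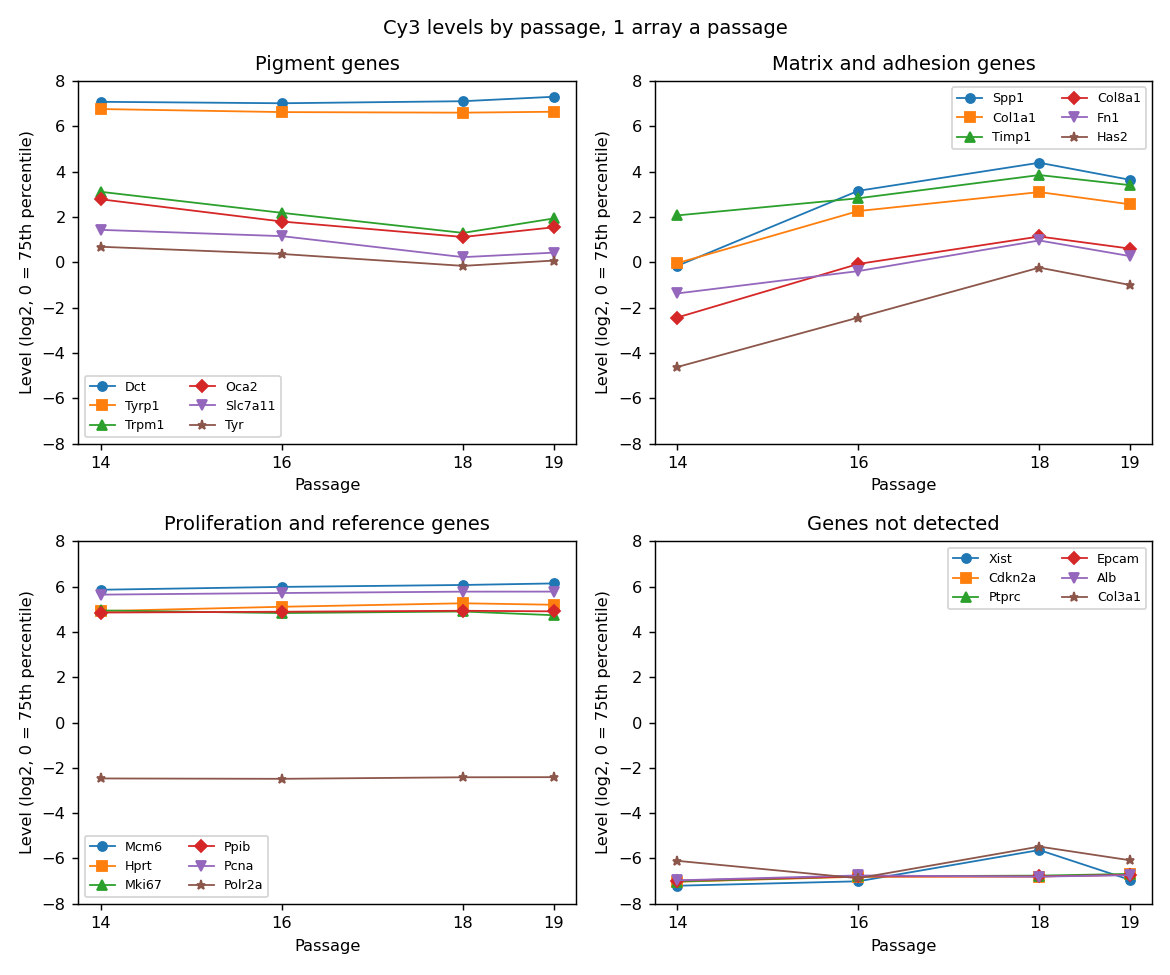
Level (log2, with 0 at the array's 75th percentile) against passage for 6 genes each of pigment, matrix and adhesion, growth and reference, and undetected genes, 1 array a passage. The matrix and adhesion genes shown are lowest at passage 14, while of all 23 tested collagens 13 were. Trpm1 and Oca2 are highest there. The growth and reference genes shown are nearly flat, and Actb, a reference gene with a range of 0.67, is not shown.

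Other extracellular matrix genes varied too, in more than 1 order of passages. Of the 7 detected fibroblast-list genes 4 had a range over 1, against 3.16% of all tested genes, and of the 23 tested collagens 8 did. Of the 23 collagens 13 were lowest at passage 14 and 5 at passage 18, and 3 were highest at passage 14. Over all tested genes these shares were 35%, 29.8% and 34.1%. Of the 7 fibroblast-list genes 4 were lowest at passage 14 and 3 at passage 16, where 2479 of all 12079 tested genes were lowest. The genes named next are ones that were low at passage 14. Col1a1, the main chain of type I collagen, had -0.04, 2.26, 3.10 and 2.56, and its other detected probe had -3.71, -1.57, -0.68 and -1.42. Both probes gave the same order of passages. Fn1, fibronectin, had -1.37, -0.39, 0.96 and 0.28. Col5a1 had 0.46, 1.49, 2.32 and 2.02, and Col9a1 had -3.45, -1.94, -0.50 and -1.21. Timp1, an inhibitor of matrix proteases, had 2.07, 2.83, 3.85 and 3.41. In each of these genes passage 14 lay below passages 18 and 19. Of 11 tested matrix proteases and inhibitors 8 were lowest at passage 14, against 35% of all tested genes, and 6 were highest at passage 18, against 26.4%. Fibroblast markers such as Col3a1, Pdgfra, Dcn, Lum and Thy1 were not detected on any array. Ngfr, a neural crest receptor, had -3.59, -2.08, -0.59 and -0.87 at its brighter probe and -3.98, -3.82, -3.44 and -3.41 at its dimmer one, which was highest at passage 19. Mbp, a myelin protein, had 0.21, 0.19, 1.27 and 1.28.

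Several pigment genes had the opposite order. Of the 14, 10 were highest at passage 14, against 34.1% of all tested genes, and 8 were lowest at passage 18, against 29.8%. Of these genes, 3 had a range over 1. Trpm1, a melanocyte cation channel, had 3.11, 2.18, 1.30 and 1.93. Oca2, a melanosomal chloride transporter, had 2.78, 1.80, 1.12 and 1.55. Slc7a11, the cystine transporter that affects the type of melanin made, had 1.43, 1.15, 0.23 and 0.43. In all of these passage 14 was the highest and passage 18 the lowest array, while Dct, Tyrp1, Pmel and Mlana stayed nearly level. Across the scalings tried, 10 to 12 of the 14 were highest at passage 14. Without passage 14, 8 of the 14 were still lowest at passage 18 among the other arrays, against 36.0% of all tested genes.

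**Figure D5:**
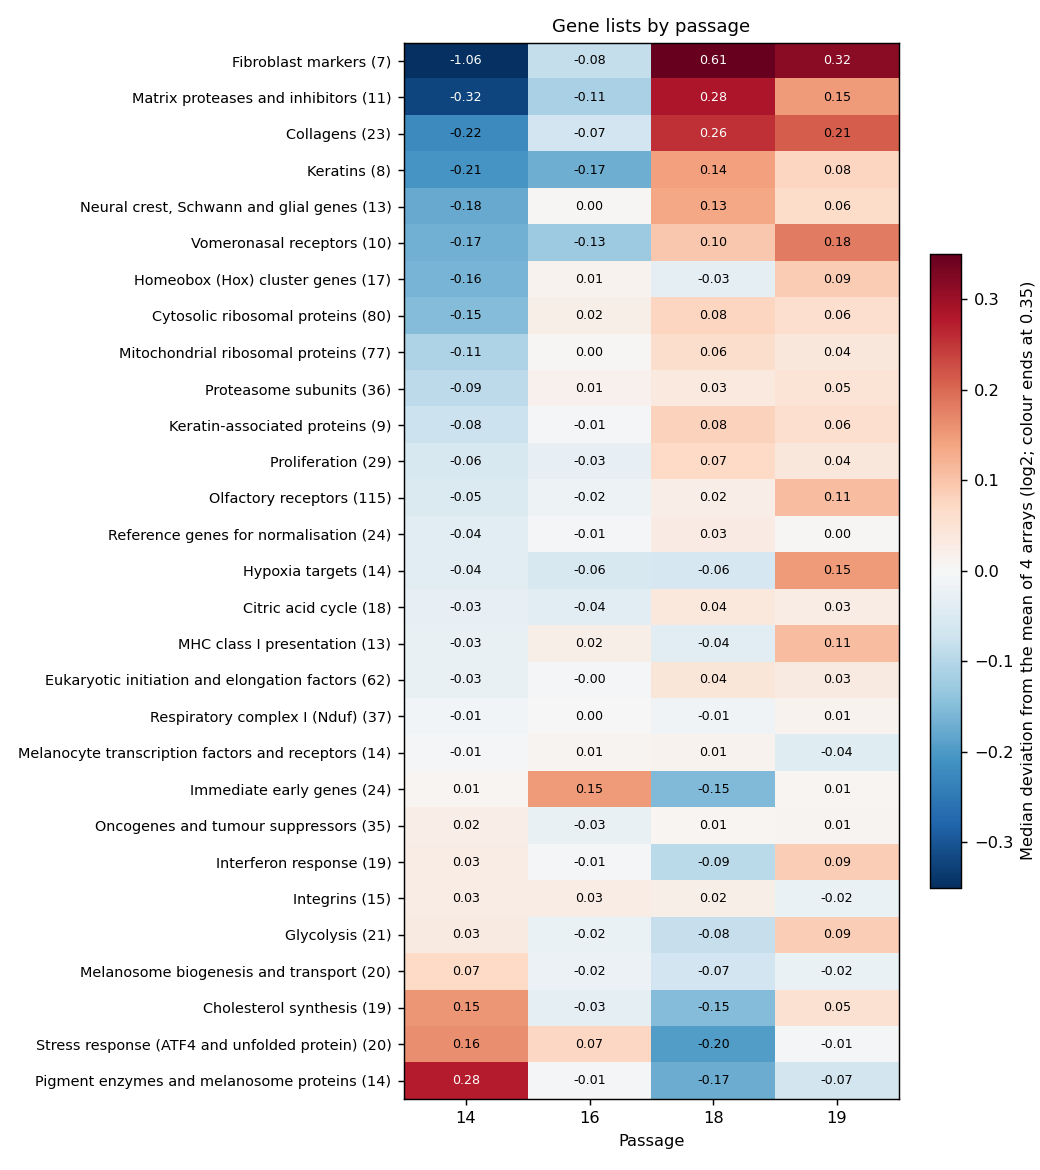
Median over the tested genes of each list (number in brackets) of the deviation from the gene's own mean over the 4 arrays, in log2 units, by passage, for lists with at least 7 tested genes. Fibroblast markers, matrix proteases and inhibitors, and collagens are low at passage 14, and pigment, stress and cholesterol genes are high there and low at passage 18.

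Smaller shifts ran through whole lists. Over all tested genes 29.8% were lowest at passage 18 and 34.1% highest at passage 14. Of 20 genes of the stress response, which ATF4 and the unfolded protein response control, 17 were lowest at passage 18 and 13 highest at passage 14. Atf5, a transcription factor of that response, had 5.39, 5.06, 4.34 and 4.87. Trib3, a pseudokinase it induces, had 3.82, 3.95, 3.13 and 3.60. The median deviation of the list from each gene's mean was 0.16 at passage 14 and -0.20 at passage 18. Of 19 genes of cholesterol synthesis 16 were lowest at passage 18 and 12 highest at passage 14, with median deviations of 0.15 and -0.15. These counts were 15 to 18 for stress genes and 15 to 17 for cholesterol genes under the other scalings. Without passage 14 they were 17 of 20 and 18 of 19, against 36.0% of all tested genes. Genes of a list share the array and are not independent, so the counts carry no test.

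Immediate early genes, which respond within minutes to signals and to handling, were detected in 24 of 27 cases. Nr4a1, an orphan nuclear receptor, had 5.43, 5.20, 4.42 and 4.79, lowest at passage 18. Egr1, a zinc finger factor, had -0.71, 0.32, 0.37 and 0.14, lowest at passage 14. Of the 24 genes 14 were lowest at passage 18, against 29.8% of all tested genes, and 10 at passage 14, against 35%. The list's median deviation was 0.15 at passage 16 and -0.15 at passage 18. Cytosolic ribosomal protein genes were lowest at passage 14 in 70 of 80 cases, against 35% of all tested genes, with a median deviation of -0.15. That count was 45 with quantile normalization and 40 with normexp and quantile normalization, so its size depended on the scaling. Mitochondrial ribosomal protein genes were lowest at passage 14 in 51 of 77 cases, and in 46 to 51 under the other scalings. The added spike-in transcripts, which do not come from the cells, had median deviations of -0.10, 0.16, -0.13 and 0.07 at passages 14, 16, 18 and 19. The list medians given here, and those of the stress and cholesterol lists, are of about that size. What part of them lies in the arrays was not tested.

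The trend with passage number was tested with limma over the 21188 probes, and no probe passed. The counts were 0 rising and 0 falling at an adjusted p of 0.05 (0% each way), with a smallest adjusted p of 0.183. At an unadjusted p under 0.05 the slope was upward in 2697 probes (12.7%) and downward in 1550 (7.32%). On simulated levels with independent noise for each probe, 47.0% of probes given a slope of 0.4 a passage were called. Of those given 0.2, 1.49% were called, and of those given 0.1, 0, so the design could miss most slopes below 0.4. Few simulated probes had a slope and none shared a shift of a whole array, so these shares may not hold for the real data. Leaving out passage 19, the other 3 arrays gave 237 rising and 92 falling probes. Without passage 14 there was no call, and 1108 probes had an unadjusted p under 0.05 in place of 4247. For Spp1 and Trpm1 passage 18 lay beyond passage 19, an order that a straight line does not describe.

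The 5 genes each way with the smallest p did not pass. On the upward side they were Adam19, a membrane metalloprotease, by its dimmest probe (-5.61, -4.45, -3.47 and -3.26, detected on 3 arrays), Rps12 by its dimmer probe (-0.70, -0.20, 0.51 and 0.64), Foxc2, a forkhead factor (-4.26, -3.49, -2.82 and -2.73), Zfp329 by a dim probe (-4.44, -4.04, -3.58 and -3.39) and Rasl11a, a small GTPase (-4.85, -3.95, -2.999 and -3.05, detected on 3 arrays). The brighter Rps12 probe was nearly flat at 6.25, 6.28, 6.28 and 6.35, and the brightest Zfp329 probe had -0.11, -0.03, 0.08 and 0.19. The brightest Adam19 probe had -3.48, -2.93, -1.59 and -2.09, highest at passage 18, and another had -4.03, -4.11, -3.98 and -3.93. On the downward side they were Ptprd, a receptor phosphatase, by a dimmer probe (-2.86, -3.19, -3.64 and -3.68), Car8 (-2.42, -2.78, -3.06 and -3.21), Zdhhc14, a palmitoyltransferase (-1.52, -1.84, -2.38 and -2.36), Prkaa2, a catalytic subunit of AMP-activated kinase (0.21, -0.20, -0.43 and -0.59), and Cftr, a chloride channel (-1.63, -2.26, -3.02 and -2.84). The brightest Ptprd probe had -2.56, -2.54, -2.90 and -2.94. All 10 had an adjusted p of 0.183 in limma.

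Genes used as references were detected in 24 of 24 cases and had no range over 1, yet they were not equally steady. Polr2a, the largest subunit of RNA polymerase II, had -2.47, -2.48, -2.42 and -2.41, and Ppib, a prolyl isomerase, had 4.85, 4.89, 4.93 and 4.91. Both stayed within 0.08 units. Gapdh had 6.25, 6.68, 6.61 and 6.38, and Hprt 4.92, 5.11, 5.26 and 5.20. Actb, cytoplasmic actin, had -0.35, 0.32, 0.29 and 0.25 at its only probe, a range of 0.67 set by the low value at passage 14.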

How the data were processed

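The authors deposited 1 scanner output a sample, with the intensity of every spot on a linear scale and its quality flags. Per the file headers, the software was Agilent's Feature Extraction, release 9.5.1.1 (the submitters' processing notes give 9). The deposited processed Cy3 intensity was background-corrected and dye-normalized by that software per the file headers. Dye normalization uses both channels, so the Cy3 values are not wholly independent of Cy5. Flags for background, saturation and outliers are other deposited columns, used as given. Coordinates of probes are those of build mm7 per the file headers, which do not give an exon or UTR.

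Of 43379 non-control spots a file, outlier spots (80 to 118 an array) were left out and spots of 1 probe averaged, which gave 41174 probes. Saturated spots occurred on the passage 14 array only (4 spots, all outliers). Through RefSeq's gene table (GRCm38.p6) 32737 probes were named, 82 on another chromosome than their gene were left out, and 19492 genes remained, each shown by its brightest probe. Levels are log2 of the processed intensity minus the array's 75th percentile. The members, the 45 gene lists and the rules were chosen with earlier results of these data known. Named genes are list members, the 20 brightest named genes, the 10 with the largest SD, and the 5 each way with the smallest p for passage, and Ptprz1's other probes, Dmxl1's other probes and probe pairs were looked at afterwards. Some list members are not reported here.

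Probes detected on at least 3 arrays were fitted with limma 3.58.1 in R 4.3.3 (slope on passage, eBayes, two-sided, Benjamini-Hochberg adjustment over all 21188 probes, threshold 0.05). The p-values reflect differences between passages of 1 line, and 4 arrays limit the precision. Alternatives covered the detection flag, scaling, normexp (offset 50), quantile normalization, the filter, outlier spots, the variance prior, later against earlier passages and each array left out. Direction counts of lists under other scalings and without passage 14 are alternatives chosen after seeing the data. The fit was tested on simulated levels.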

Additional observations from a re-analysis of the deposited data

Results flagged for a closer look

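In 12 of 143 sets of 4 values checked (8.39%), 1 array lay far from the other 3 (by Dixon's ratio of gap to range). Chance gives about 1 in 20 for independent, unselected sets. The sets here share arrays and include genes named for a large SD or a small p, so that share is no yardstick for them. The linear dye factor of passage 14 was low at 0.764. The level of Actb was low at passage 14 (-0.35), and that of Dmxl1 was high there (1.07). The level of Rplp0 was high at passage 19 (7.08), as was that of Tubb3 (2.16). The Xist value at passage 18 (-5.63) stood above the others, on a probe that was detected on no array. Among list medians of the deviation from each gene's mean, hypoxia targets were high at passage 19 (0.15) and integrins were lowest there (-0.024). T and NK cell markers were high at passage 14 (0.12, 5 tested genes). Low medians at passage 14 were seen for keratinocyte and epithelial markers (-0.26, 3 tested genes), hepatocyte markers (-0.22, 4 tested genes) and neuron markers (-0.42, 3 tested genes). The tested keratinocyte and epithelial markers and hepatocyte markers were dim, with median levels of -4.09 and -4.16 at passage 14. Some probes at background, such as that of Cdkn2a (-7.03, -6.81, -6.80 and -6.70), also read lowest there, and others did not. What part of these medians lies in the background was not tested.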

How the results depend on the processing

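No paired analysis was possible because only 1 group of samples, the IgG channel, was analysed. Of 334 alternative values of the main results 306 kept their size within 1.5 times or within 1 SD, and 28 moved. The looser flag of the software, signal above background at its own significance, gave 3083 genes not detected in place of 6590 and raised the counts of detected members that were small: MHC class II 7, T and NK 8, B cell 5, endothelial 5, keratinocyte and epithelial 7, hepatocyte 6, muscle 8, neuron 5, erythroid 8, pluripotency and germ line 6, olfactory 348, vomeronasal 33, taste 5, keratins 22, keratin-associated 15, defensins 11, Hox 26 and claudins 10. Requiring at least 3 arrays gave 2 taste receptors, and leaving out an array gave 1 to 2. Silence of these lists therefore depends on the threshold for background. Probes with a range over 1 numbered 183 with normexp and quantile normalization, 233 with normexp and the 75th percentile, 3958 with no filter, and 187 (without passage 14) to 537 (without passage 16) with an array left out, with 362 without passage 18. The cause was not tested. Passage trends numbered 0 to 237 rising and 0 to 92 falling with an array left out, the highest without passage 19. Every other fit of the passage trend gave 0 calls, with a smallest adjusted p between 0.0527 and 0.852. Of 470 alternative values of single genes' differences between passages 18 and 14, 56 moved by more than the SD over the arrays, and no difference over 1 changed sign. Dim probes limit the precision, with a median SD of 0.194 for levels under -3.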
